A study of Saccharomyces cerevisiae with 8 samples.

Results

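The genes described here encode the RNA polymerase I and III machinery of baker's yeast, Saccharomyces cerevisiae. They are 43 named genes, of 5656 genes that had a probe set of their own on the arrays. Membership was set by name: 7 subunits of polymerase I alone, 10 of polymerase III alone, 2 shared by these enzymes, 5 shared by all 3 nuclear polymerases, 8 initiation factors of polymerase I, 8 subunits of the polymerase III factors TFIIIB and TFIIIC, and 3 regulators. Each gene was read by its brightest single-gene probe set, and 42 of the 43 passed the filter on dim signals.

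RNA polymerase I transcribes the ribosomal DNA repeats into the precursor of the large ribosomal RNAs. RNA polymerase III makes the 5S ribosomal RNA, the transfer RNAs and other short RNAs. In growing yeast these enzymes carry out most transcription, and nutrient and stress signals act on both, through the polymerase I factor Rrn3 and the polymerase III repressor Maf1. The messenger RNAs measured here encode the machinery and do not report its activity.

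The study compared commercial baker's yeast after 0, 3, 7 or 14 days of frozen storage. Suspensions of the compressed yeast, at OD600 = 30 in fermentation medium with neither sucrose nor maltose, were kept at -20 °C and thawed at 30 °C for 10 min. The labels describe this handling for every group, 0 days included, so suspension and thawing are common to all samples, and they name no strain. Each time had 2 independent samples, each read on 1 Affymetrix array after poly(A) enrichment, giving 8 arrays.

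Signals below are quantile normalised probe set intensities on a linear scale. They are compared only within a gene, because different probe sets bind with different strength. The median deposited signal ran from 51.6 to 109.7 across arrays, and array replicates correlated across genes at r between 0.877 at 0 days and 0.938 at 7 days. The higher replicate exceeded the lower by a median over members of 1.39-fold at 0 days, 1.36-fold at 3 days, and 1.25-fold at both 7 and 14 days. A gene was called where limma's Benjamini-Hochberg adjusted p over all 5188 genes tested was under 0.05. The arrays read whole cultures, so fewer cells holding a transcript and less transcript per cell cannot be told apart.

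The 5 members with the smallest F-test p were polymerase subunits, namely RPA190, RPC25, RPC34, RPA135 and RPC17, and their signals were lower in the late arrays (7 and 14 days) than in most or all early arrays (0 and 3 days). At 14 days against 3 days, 2 members passed the test: RPA190, the largest subunit of polymerase I, fell 3.40-fold, and RPC34, a polymerase III subunit that works in initiation, fell 4.54-fold. The 2 calls among 42 members stand beside 4.59% of all genes called in that comparison, so the share is near the background. RPA190 was also the only member called by the F test among the 4 times (limma adjusted p = 0.0404), a test that called 2.58% of all genes. No member was called at 14 against 0 days (1.73% of all genes called), 7 against 0 days (0.212%) or 7 against 3 days (1.20%). None was called at 3 against 0 days or 14 against 7 days, where limma called 0 of all 5188 genes. At an unadjusted p under 0.05, limma placed 1 member higher and 0 lower at 3 against 0 days, beside 4.14% and 2.87% of all genes. It placed 3 higher and 4 lower at 7 against 0 days (12.2% and 6.75% of all genes), and 0 higher and 8 lower at 14 against 0 days (12.8% and 9.37%). At 7 against 3 days 1 member was higher and 9 lower (11.8% and 8.54% of all genes), and at 14 against 3 days 0 were higher and 11 lower (12.9% and 11.7%). At 14 against 7 days the count was 0 each way (0.289% and 0.636% of all genes).

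**Figure D1:**
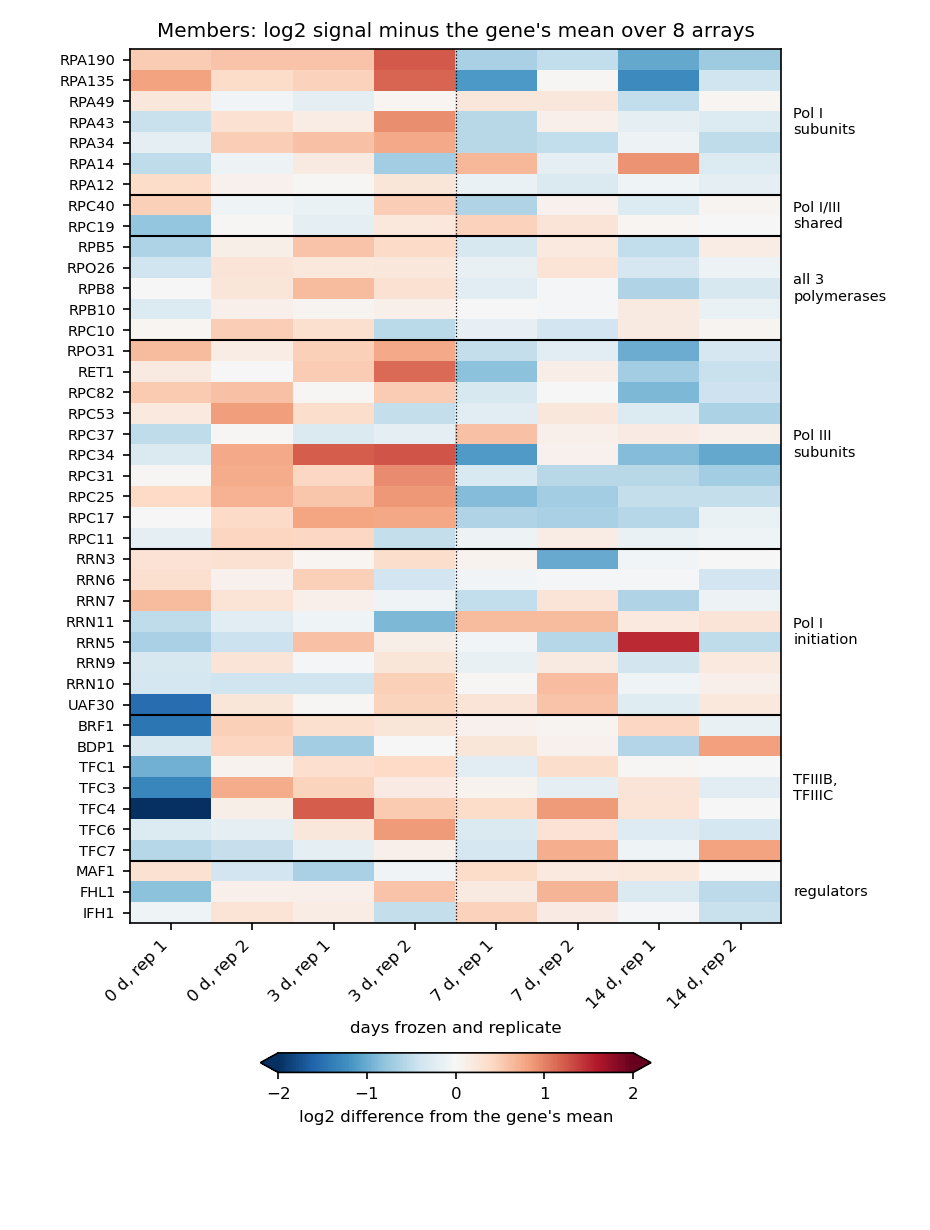
Log2 signal of each of the 42 tested members (rows, by role) in each of the 8 arrays (columns, by days frozen and replicate), minus that gene's mean over the arrays; red is above the mean and blue below, and the dotted line parts 0 and 3 days from 7 and 14 days. RPA190, RPA12, RPO31, RPC31, RPC25 and RPC17 lie above their mean in every early array and below it in every late one. RPA135 and RPC82 differ from this only in 7 day replicate 2, at 0.03 and 0.004. The other polymerase III subunits are mixed, and several TFIIIB and TFIIIC genes are blue in 0 day replicate 1.

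Polymerase I has a catalytic core built from its largest and second-largest subunits. RPA190 (YOR341W, chromosome XV) encodes the largest. Its signals were 1711 and 1789 at 0 days, 1784 and 2816 at 3 days, 772 and 857 at 7 days, and 589 and 737 at 14 days. All 4 late arrays lay below all 4 early ones. At 14 against 3 days the log2 fold change was -1.77 ± 0.34 (SE, n = 2 arrays per time, limma adjusted p = 0.0238). The values against 0 days were -1.41 at 14 days (limma adjusted p = 0.0603) and -1.10 at 7 days (limma adjusted p = 0.143), and neither was a call. Comparisons against the same time share its arrays, so they are not independent of each other.

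The call of RPA190 rested on few arrays. It was lost at 14 against 3 days without 3 day replicate 2 and without either 14 day array. In those settings few of all genes stayed called, so the loss was not particular to RPA190. Its log2 fold change at 14 against 3 days stayed between -2.10 and -1.44 with any 1 array left out. The gene had 6 dimmer probe sets besides the brightest, and all 6 gave negative values at 14 against 3 days, between -4.56 and -0.26. At 14 against 0 days 1 of the dimmer probe sets gave 0.73, while the others lay between -2.04 and -0.67. With the mean of all probe sets, the limma adjusted p at 14 against 3 days was 0.197.

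RPA135 encodes the second-largest subunit. It had 1526 and 1124 at 0 days, 1199 and 1959 at 3 days, 395 and 889 at 7 days, and 359 and 659 at 14 days. Its late arrays also all lay below its early arrays, with log2 fold changes of -1.66 ± 0.48 at 14 against 3 days (SE, limma adjusted p = 0.0722) and -1.43 ± 0.48 at 14 against 0 days (limma adjusted p = 0.120).

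RPA34 and RPA49 encode a heterodimer bound to the polymerase I core that is related to the polymerase II factor TFIIF. RPA34 had 932 and 1481 at 0 days, 1594 and 1795 at 3 days, 716 and 752 at 7 days, and 987 and 744 at 14 days. Both 7 day arrays lay below both 3 day arrays (limma adjusted p = 0.102, log2 fold change -1.20 ± 0.35 SE). The 14 and 0 day arrays overlapped. RPA49 ranged from 845 to 1390 over the 8 arrays, and its log2 fold change at 14 against 3 days had a 95% confidence interval from -0.87 to 0.58. For these partners the groups were placed differently at 7 against 3 days: the log2 fold change of RPA34 was negative, and that of RPA49 was 0.30.

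The stalk subunits RPA43, which contacts Rrn3, and RPA14 had log2 fold changes of -0.77 and 0.57 at 14 against 3 days, neither called. RPA14 was uneven between replicates, at 2718 and 1209 at 14 days. RPA12, needed for RNA cleavage by the enzyme, had 1585 and 1471 at 14 days and 2169 and 1784 at 0 days. Its late arrays all lay below its early arrays, yet the log2 fold change at 14 against 0 days was -0.37. Without normalisation it was 0.11, which is -0.48 relative to the median of all genes.

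RPA43 (YOR340C) and RPA190 (YOR341W) are neighbours on chromosome XV and are transcribed away from each other, by their order and strands in the RefSeq R64 annotation. Taken as a log2 ratio of RPA190 to RPA43 within each array, relative to the 0 day mean, the pair gave 0.34 and -0.34 at 0 days, -0.18 and -0.31 at 3 days, -0.69 and -1.20 at 7 days, and -1.44 and -1.04 at 14 days. The ratio was lower in every late array than in every early one, so the signals of these neighbours differed by unequal amounts. The pair was singled out after its values were seen.

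**Figure D2:**
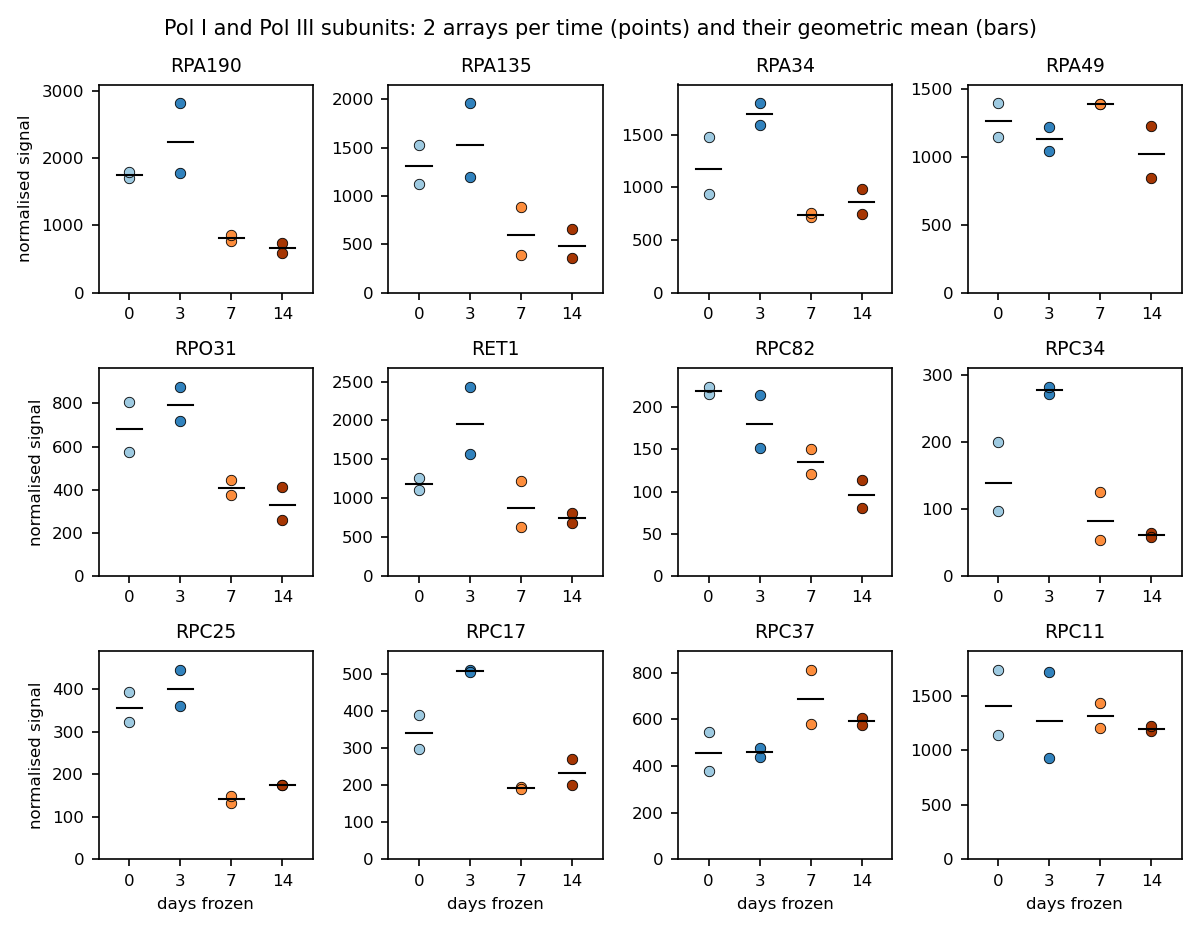
Normalised signal (y axis, linear) against days frozen (x axis) for polymerase subunit genes, with 1 point per array and a bar at the geometric mean of the 2 arrays. RPA190 lies at 589 and 737 at 14 days against 1784 and 2816 at 3 days, and RPC34 at 64.2 and 58.0 against 272 and 282.

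Among the polymerase III subunits, 5 of 10 had every late array below every early array, as did 3 of 7 polymerase I subunits, beside 10.4% of all genes. RPO31, the largest subunit, had 805 and 574 at 0 days, 719 and 878 at 3 days, 373 and 445 at 7 days, and 261 and 410 at 14 days. RET1, the second largest, had 1257 and 1103 at 0 days, 1568 and 2436 at 3 days, 627 and 1219 at 7 days, and 685 and 814 at 14 days. The late arrays of RPO31 all lay below its early arrays, while 1 late array of RET1, 7 day replicate 2, lay above an early one. At 14 against 3 days the log2 fold changes were -1.28 ± 0.38 for RPO31 (limma adjusted p = 0.0834) and -1.39 ± 0.39 for RET1 (limma adjusted p = 0.0695), with SEs given.

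RPC82, RPC34 and RPC31 encode a trimer needed for specific initiation and promoter opening by polymerase III. RPC34 (YNR003C, chromosome XIV) had 96.7 and 199 at 0 days, 272 and 282 at 3 days, 53.6 and 125 at 7 days, and 64.2 and 58.0 at 14 days. Both 14 day arrays lay below every early array, and the 3 day arrays were the highest of the 8. The fall at 14 against 3 days was -2.18 ± 0.49 on the log2 scale (SE, limma adjusted p = 0.0360). Against 0 days the value was -1.19 (limma adjusted p = 0.189). The call at 14 against 3 days was lost without either 3 day array and without either 14 day array. Fewer of all genes were called in those settings too. The log2 fold change of RPC34 there stayed between -2.26 and -2.11 with any 1 array left out.

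For the other members of the trimer all late arrays lay below all early arrays, though narrowly for RPC82. Relative to its mean log2 signal over the arrays, RPC82 stood at 0.0036 in 7 day replicate 2 and at 0.0159 in 3 day replicate 1. RPC82 had 80.4 and 113 at 14 days, against 215 and 224 at 0 days (log2 fold change -1.20 ± 0.38 SE, limma adjusted p = 0.108). RPC31 had 110 and 99.5 at 14 days, against 215 and 310 at 3 days (limma adjusted p = 0.0868, log2 fold change -1.30 ± 0.39 SE). The log2 fold change of RPC82 at 14 against 3 days was -0.92, and that of RPC31 at 14 against 0 days was -1.01.

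RPC25 and RPC17 encode the stalk of polymerase III, the counterpart of RPA43 and RPA14. RPC25 had 323 and 395 at 0 days, 359 and 446 at 3 days, 133 and 150 at 7 days, and 174 and 175 at 14 days. RPC17 had 298 and 389 at 0 days, 512 and 505 at 3 days, 196 and 189 at 7 days, and 201 and 272 at 14 days. In both genes the early and late arrays did not overlap, and the 7 day arrays were the lowest in RPC25. The log2 fold changes at 7 against 3 days were -1.50 ± 0.35 for RPC25 (SE, limma adjusted p = 0.0575) and -1.40 ± 0.36 for RPC17 (SE, limma adjusted p = 0.0759).

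RPC53, RPC37 and RPC11 act in termination and in restarting on the same gene. RPC53 had 171 and 134 at 14 days and 237 and 372 at 0 days (log2 fold change -0.97 ± 0.43 SE, limma adjusted p = 0.214). Its heterodimer partner RPC37 had 607 and 576 at 14 days and 379 and 546 at 0 days (limma adjusted p = 0.574, log2 fold change 0.38 ± 0.36 SE), and all its late arrays lay above all its early ones. RPC11 gave a log2 fold change of -0.08 at 14 against 3 days, with a 95% confidence interval from -0.91 to 0.75.

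Across the 10 polymerase III subunits the median log2 fold change was -1.16 at 14 against 3 days, where the median of all genes was 0.02, and -0.99 at 14 against 0 days, where that of all genes was 0.11. At an unadjusted p under 0.05, 7 of the 10 were lower at 14 against 3 days, beside 11.7% of all genes, and 6 of 10 were lower at 14 against 0 days, beside 9.37%. These are descriptive counts: only RPC34 at 14 against 3 days passed adjustment. For the 7 polymerase I subunits the medians were -0.77 at 14 against 3 days and -0.37 at 14 against 0 days. The polymerase III medians stayed negative at -0.86 and -0.43 for 14 against 0 days with equal array medians and without normalisation, whereas the polymerase I median became 0.11 without normalisation.

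Unscaled, the median of all genes itself stood at 0.98 for 7 against 0 days, 0.59 for 14 against 0 days, 0.63 for 7 against 3 days and 0.25 for 14 against 3 days, so unscaled values are read relative to it. Relative to the median of all genes, 9 of 10 polymerase III subunits and 6 of 7 polymerase I subunits were lower at 14 against 0 days and at 14 against 3 days under each of the 3 scalings.

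**Figure D3:**
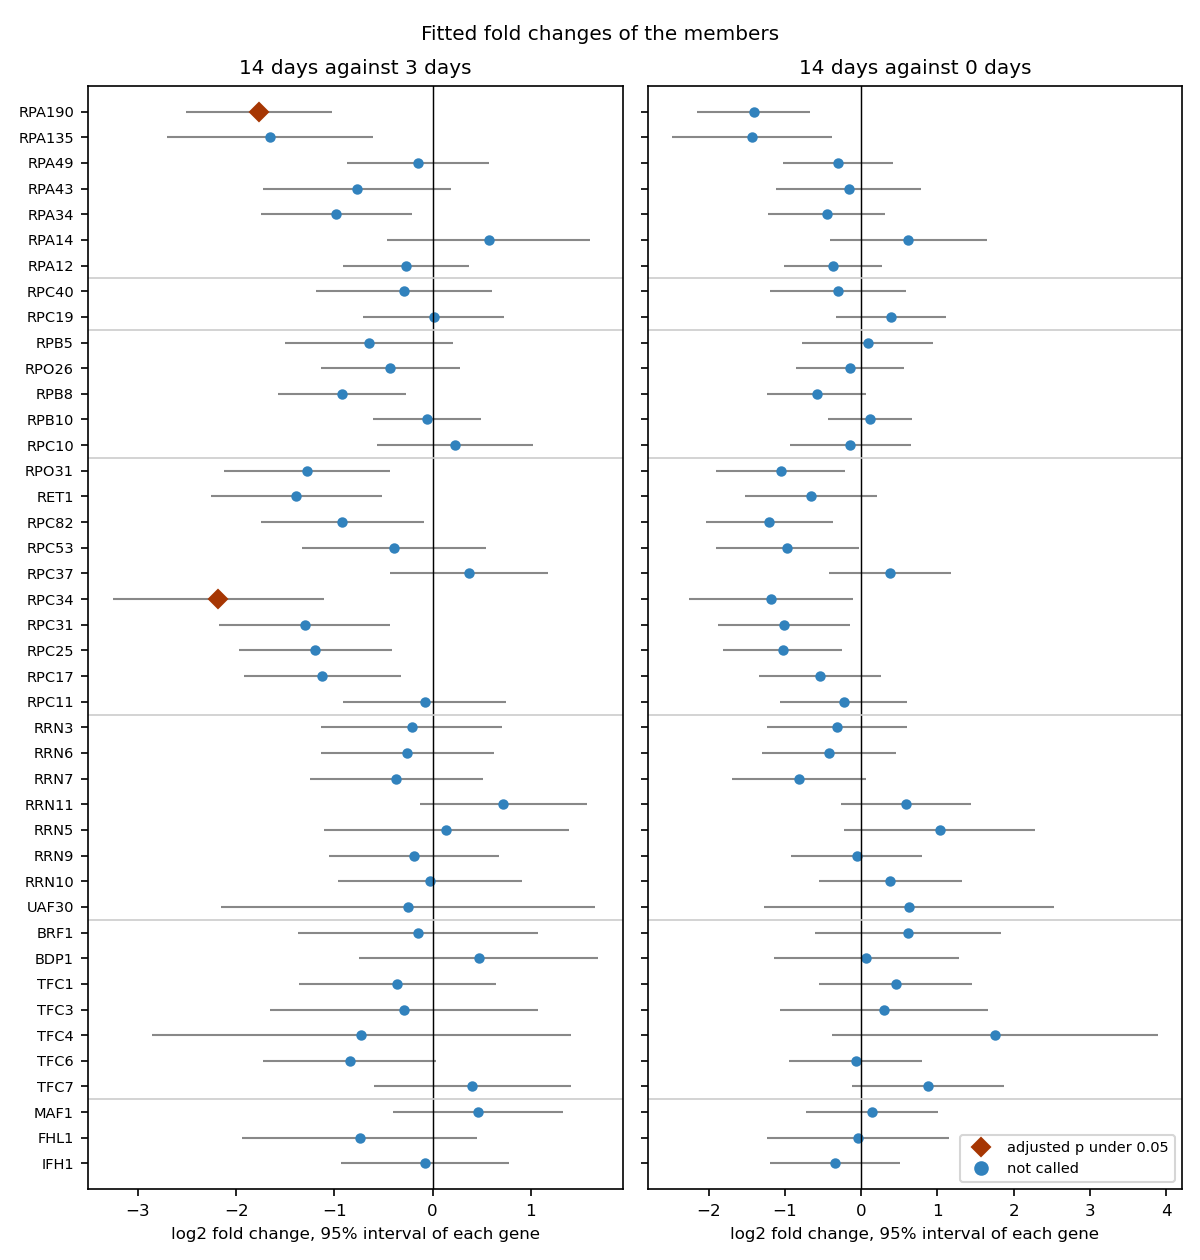
Log2 fold change of each tested member at 14 against 3 days and 14 against 0 days, with 95% confidence intervals from limma. RPA190 and RPC34 have the calls at 14 against 3 days, at -1.77 and -2.18. On this quantile normalised scale most other polymerase subunits lie left of 0. At 14 against 3 days 6 of 8 polymerase I initiation factors and 5 of 7 TFIIIB and TFIIIC genes also lie left of 0. At 14 against 0 days 4 of 8 and 1 of 7 do.

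Counted over single arrays, 9 of 42 members had all 4 late arrays below all 4 early arrays, which is 21.4%, beside 10.4% of all genes. They were RPA190, RPA135, RPA12, RPB8, RPO31, RPC82, RPC31, RPC25 and RPC17. The opposite arrangement held for RPC37 and RRN11, 2 of 42 members, beside 13.2% of all genes. This parting of the times was chosen with earlier results of these arrays known, so it describes the members and tests nothing. Without normalisation the log2 fold changes of RPA12, RPB8, RPO31, RPC82, RPC31 and RPC17 at 7 against 0 days were positive, as were those of RPA12 and RPC17 at 14 against 0 days. Relative to the median of all genes on that scale all of these were negative, between -0.97 and -0.36 at 7 against 0 days, and -0.48 and -0.58 at 14 against 0 days. At 14 against 3 days all 9 stayed negative under the 3 scalings.

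Technical measures also differed between early and late arrays. Ribosomal RNA probe sets averaged 8.85 and 6.76 times the array median at 0 days, 7.75 and 11.3 times at 3 days, 17.1 and 22.7 times at 7 days, and 21.7 and 15.7 times at 14 days. The ACT1 ratio of 3' to 5' signal, a measure of RNA integrity and labelling, was 1.54 and 2.86 at 0 days, 2.78 and 1.41 at 3 days, 2.16 and 1.70 at 7 days, and 2.23 and 2.01 at 14 days. The ribosomal RNA share moved with the early and late times and its part in the differences was not tested, while the ACT1 ratio overlapped between them.

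Of the 7 subunits shared between polymerases, limma called 0 in any of the 6 comparisons, and 2 had an unadjusted p under 0.05. RPC19 was higher at 7 against 0 days, beside 12.2% of all genes, and RPB8 was lower at 14 against 3 days, beside 11.7%, so these counts are near the background. RPC40 and RPC19 form the heterodimer on which polymerases I and III are assembled. RPC40 had 869 and 587 at 0 days, 570 and 881 at 3 days, 410 and 660 at 7 days, and 518 and 646 at 14 days. RPC19 had 1330 and 2324 at 0 days, 1990 and 2630 at 3 days, 3133 and 2718 at 7 days, and 2340 and 2269 at 14 days. The arrays of RPC40 overlapped between all times, and those of RPC19 were highest at 7 days (log2 fold change 0.73 ± 0.33 SE at 7 against 0 days, limma adjusted p = 0.256).

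RPB5, RPO26, RPB8, RPB10 and RPC10 encode small subunits common to all 3 polymerases. RPB8 had 1912 and 2278 at 0 days, 2972 and 2354 at 3 days, 1633 and 1879 at 7 days, and 1259 and 1542 at 14 days, with every late array below every early one (log2 fold change -0.92 ± 0.30 SE at 14 against 3 days, limma adjusted p = 0.0998). RPB5 had 651 and 1091 at 0 days, 1481 and 1314 at 3 days, 806 and 1152 at 7 days, and 714 and 1116 at 14 days, so that its 3 day arrays were the highest. RPC10 had 1432 and 1965 at 0 days, 1743 and 960 at 3 days, 1252 and 1078 at 7 days, and 1581 and 1458 at 14 days. Both its 7 day arrays lay below both 0 day and both 14 day arrays, and its other times overlapped. RPB10 and RPO26 had log2 fold changes of -0.06 and -0.43 at 14 against 3 days.

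Subunits found only in polymerase II were used for comparison. Of 7 such genes limma called 0 in any of the 6 comparisons, and 0 higher and 1 lower had an unadjusted p under 0.05 at 14 against 3 days, beside 12.9% and 11.7% of all genes. Their median log2 fold change was -0.35 at 14 against 3 days and 0.03 at 14 against 0 days. RPB4, which forms the stalk with RPB7, had a log2 fold change of -0.53 ± 0.40 at 14 against 0 days, and RPB11, an assembly subunit, had -0.49 ± 0.52 (SE). The difference between polymerase II and polymerase I or III subunits was not tested.

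**Figure D4:**
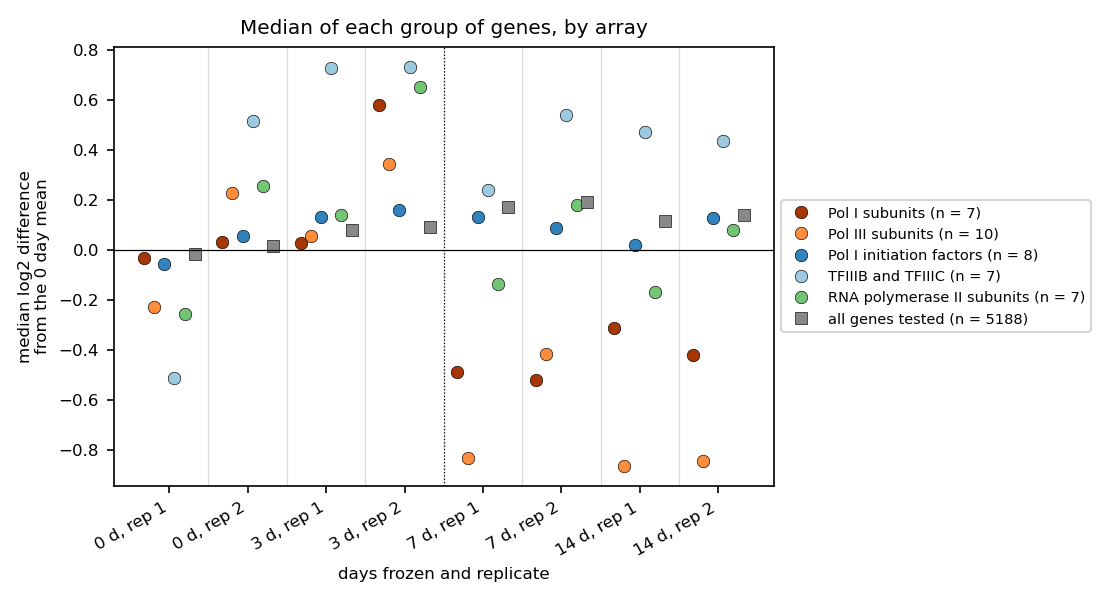
Median over the genes of each role class of the log2 difference from the gene's 0 day mean (y axis), for each of the 8 arrays (x axis); colours mark the classes, and squares mark all 5188 genes. Polymerase III subunits stand at -0.83 and -0.42 in the 7 day arrays and -0.86 and -0.84 in the 14 day arrays, against 0.06 and 0.34 in the 3 day arrays, while polymerase I initiation factors stay between -0.06 and 0.16.

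Of the 8 initiation factors of polymerase I, limma called 0 in any comparison, and RRN11 alone had an unadjusted p under 0.05, higher at 7 against 0 days (12.2% of all genes) and at 7 against 3 days (11.8%). At 14 against 0 days 4 of the 8 lay below the median of all genes under each of the 3 scalings. RRN3, the factor that joins polymerase I to the promoter-bound core factor, had 404 and 407 at 0 days, 337 and 419 at 3 days, 347 and 164 at 7 days, and 318 and 331 at 14 days. Its log2 fold change at 14 against 0 days was -0.32 ± 0.42 (SE, limma adjusted p = 0.688). Without normalisation it was 0.24, which is -0.35 relative to the median of all genes. A single array, 7 day replicate 2, stood lowest.

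RRN6, RRN7 and RRN11 encode the core factor itself, and RRN7 and RRN11 were placed apart. RRN7 had 302 and 236 at 0 days, 208 and 185 at 3 days, 137 and 232 at 7 days, and 128 and 180 at 14 days (log2 fold change -0.81 ± 0.40 SE at 14 against 0 days, limma adjusted p = 0.256). RRN11 had 134 and 164 at 0 days, 179 and 101 at 3 days, 294 and 294 at 7 days, and 217 and 227 at 14 days (limma adjusted p = 0.149 at 7 against 3 days, log2 fold change 1.12 ± 0.39 SE). The late arrays of RRN11 all lay above the early ones. RRN6 overlapped between 14 and 3 days and had a log2 fold change of -0.26.

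RRN5, RRN9, RRN10 and UAF30 encode the upstream activating factor, which binds the ribosomal DNA promoter with histones. RRN5 had 115 and 134 at 0 days, 271 and 196 at 3 days, 174 and 122 at 7 days, and 507 and 127 at 14 days. A single array, 14 day replicate 1, set its log2 fold change of 1.03 at 14 against 0 days, which was 0.03 without that array. A second probe set of the gene gave -0.59, and a further dim probe set, below the filter, gave -1.72. RRN9 and RRN10 had log2 fold changes of -0.06 and 0.38 at 14 against 0 days, and UAF30 was dim, between 7.60 and 32.5.

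TFIIIC binds the internal promoters of transfer RNA genes and places TFIIIB, which then recruits polymerase III repeatedly. BRF1, a TFIIIB subunit related to TFIIB, had 38.8 and 148 at 0 days, 132 and 126 at 3 days, 112 and 110 at 7 days, and 141 and 95.3 at 14 days. Apart from 0 day replicate 1 its arrays lay within 95.3 to 148, and its log2 fold change at 14 against 0 days was 0.61 ± 0.55 (SE, limma adjusted p = 0.542), against -0.35 without 0 day replicate 1.

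Of the TFIIIC genes, TFC4 had 3.10 and 34.5 at 0 days, 73.4 and 45.4 at 3 days, 41.0 and 56.9 at 7 days, and 38.2 and 31.9 at 14 days. Its log2 fold change at 14 against 0 days was 1.75 ± 0.97 (SE, limma adjusted p = 0.315) and 0.02 without 0 day replicate 1, which lay near the floor of 2.52. TFC6 had 83.3 and 88.5 at 0 days, 118 and 183 at 3 days, 82.5 and 123 at 7 days, and 84.5 and 78.8 at 14 days. TFC7 had 111 and 119 at 0 days, 144 and 175 at 3 days, 130 and 270 at 7 days, and 154 and 287 at 14 days. The TFC6 arrays were highest in 3 day replicate 2, and the TFC7 arrays at 14 days both lay above those at 0 days (limma adjusted p = 0.281, log2 fold change 0.88 ± 0.45 SE).

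The same array, 0 day replicate 1, was the lowest of the 8 for 13 of 42 members, beside 19.6% of all genes. These were BRF1, TFC1, TFC3, TFC4 and TFC7, and outside the class RPC19, RPB5, RPO26, RPB10, RPC37, RRN5, UAF30 and FHL1. For TFC7 the log2 fold change at 14 against 0 days was 0.83 without that array. The median over the 7 tested TFIIIB and TFIIIC genes was -0.51 in that array and 0.51 in 0 day replicate 2, relative to their 0 day mean, so values of these genes against 0 days depend on which 0 day array is used. Against 3 days, the class median was -0.29 at 14 days. Limma called 0 of its genes in any comparison, and TFC4 alone had an unadjusted p under 0.05, higher at 3 against 0 days (4.14% of all genes) and at 7 against 0 days (12.2%). TFC8 did not pass the filter: its signals ran from 2.52, the floor, to 56.5, and it was not tested.

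**Figure D5:**
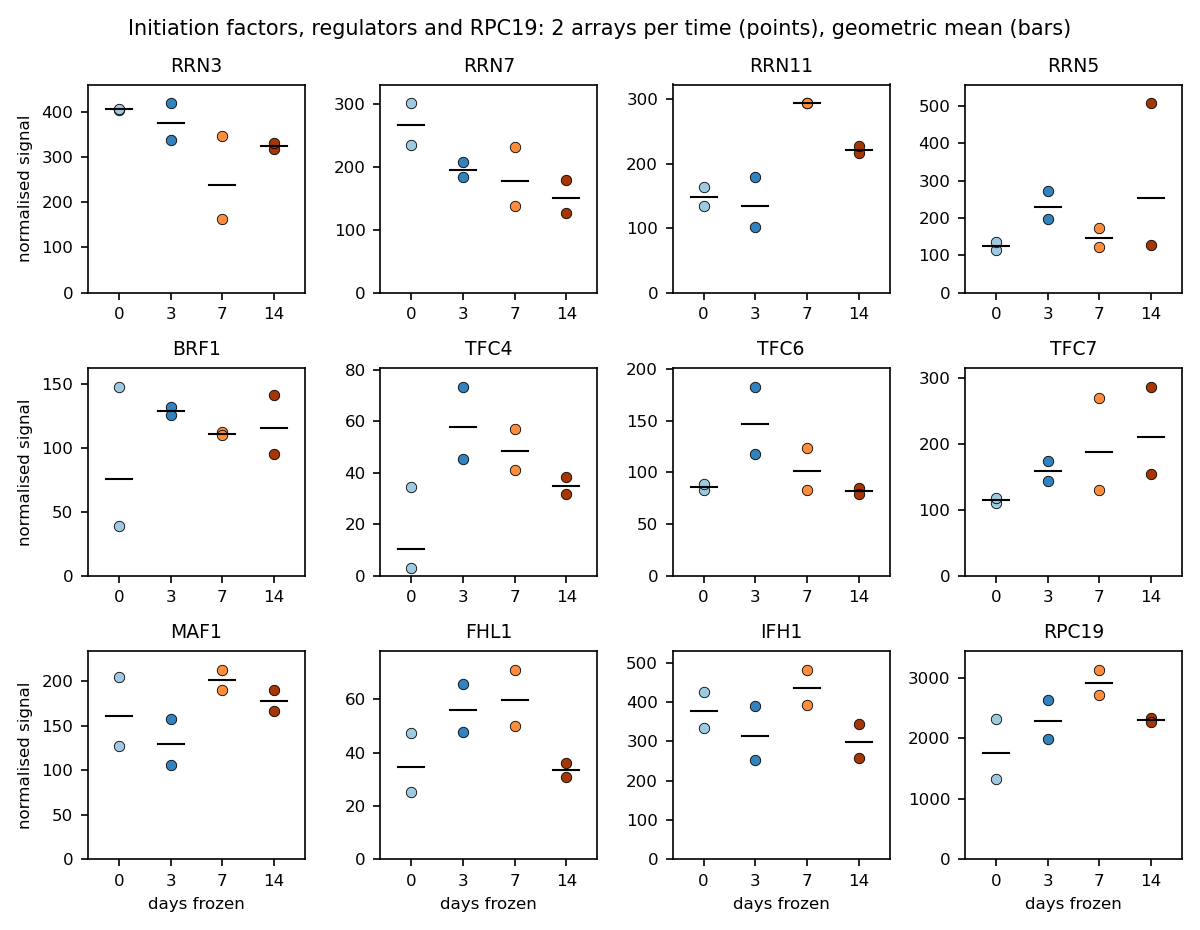
Normalised signal (y axis, linear, from 0) against days frozen (x axis) for initiation factors, regulators and RPC19, with 1 point per array and a bar at the geometric mean of the 2 arrays. RRN11 lies between 217 and 294 in the late arrays, above 101 to 179 in the early ones, and BRF1 and TFC4 each have a single low array at 0 days.

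MAF1, FHL1 and IFH1 were the 3 regulators on the list, and limma called 0 of them in any comparison, with 0 at an unadjusted p under 0.05. MAF1, the repressor of polymerase III that acts mainly through its phosphorylation, had 204 and 127 at 0 days, 106 and 158 at 3 days, 213 and 190 at 7 days, and 191 and 166 at 14 days. Both 14 day arrays lay above both 3 day arrays (log2 fold change 0.46, 95% confidence interval from -0.40 to 1.33). FHL1 and its coactivator IFH1 act at ribosomal protein gene promoters, which polymerase II reads.

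FHL1 had 25.1 and 47.6 at 0 days, 47.6 and 65.7 at 3 days, 50.2 and 71.1 at 7 days, and 36.3 and 30.8 at 14 days. IFH1 had 333 and 427 at 0 days, 391 and 253 at 3 days, 482 and 393 at 7 days, and 344 and 258 at 14 days. The log2 fold changes of this pair at 14 against 0 days were -0.05 ± 0.54 for FHL1 and -0.34 ± 0.39 for IFH1 (SE). Without normalisation they were 0.26 and 0.24, which are -0.33 and -0.34 relative to the median of all genes.

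The products of the polymerases are assembled with ribosomal proteins and processed by ribosome biogenesis factors, so these lists were read beside the members. Of 137 ribosomal protein genes listed, 80 had a single-gene probe set past the filter and were tested. At 14 against 3 days limma called 17 of the 80 lower and 0 higher (median log2 fold change -0.68). Of all 5188 genes, 105 were lower and 133 higher there. At 14 against 0 days 4 were called lower and 0 higher (median -0.61), beside 38 lower and 52 higher of all 5188 genes. RPS1B fell (log2 fold change -2.32 ± 0.31 at 14 against 0 days, SE, limma adjusted p = 0.0140), as did RPS22A (-1.09 ± 0.18, limma adjusted p = 0.0251), both proteins of the small ribosomal subunit. Many ribosomal protein genes have near-identical copies, which probes may not separate.

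Of 133 ribosome biogenesis genes, 2 were called lower and 0 higher at 14 against 3 days, beside 105 lower and 133 higher of all 5188 genes. This share is near the background. The 2 were MAK5 and RIO2, named because the count is small. The median log2 fold change of the list was -0.28. BMS1, a GTPase of small-subunit assembly, had a log2 fold change of -1.63 ± 0.42 at 14 against 0 days (SE, limma adjusted p = 0.0716), and UTP22, of the same pathway, had -1.31 ± 0.36 (SE, limma adjusted p = 0.0892). The medians of both lists stayed negative under the 3 scalings at 14 against 3 days, but their size depended on the scaling. With equal array medians and without normalisation, ribosomal proteins had -1.28 and -1.02, and biogenesis genes -0.44 and -0.17. Polymerase III subunits had -1.14 and -0.88 there, so their order against ribosomal proteins changed with the scaling. Whether these lists differ from the polymerase genes was not tested.

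Comparisons that share no array can be set side by side. The direction at 14 against 0 days and at 7 against 3 days was the same for 71.4% of the 42 members, 21 of them lower in both and 9 higher in both, beside 73.9% of all genes. Between 7 against 0 days and 14 against 3 days it was the same for 64.3% of members and 72.5% of all genes.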

How the data were processed

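Probe set intensities, deposited by the authors as a table with 1 column per array, were used on their linear scale. Which software summarised the probes, and whether it scaled them, is not given in the sources used here. Labels name hot phenol extraction and poly(A) enrichment, per the labels' protocols. Of 9335 probe sets, 60 controls were removed, 6504 had 1 gene symbol, 328 several and 2443 none. Genes were named only from probe sets with 1 symbol, and 0 symbols changed against RefSeq R64.

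Arrays were quantile normalised, raised to a floor at the pooled 5th percentile (2.52) and taken to log2. Probe sets with a mean below the 25th percentile (17.9) were left out, which left 5188 genes by brightest probe set. Limma 3.58.1 in R 4.3.3 fitted 1 mean per time to all 8 arrays (4 residual and 6.89 prior degrees of freedom), with an intensity trend, two-sided tests and Benjamini-Hochberg adjustment over all genes in each of 6 comparisons and an F test. The fit was tested on simulated data. The median SE of a log2 fold change was 0.45 at 14 against 0 days, and the number of arrays limits the precision. Present and absent calls were left aside.

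Members and lists were chosen with earlier results of these data known, and no list was tested as a set. Values in every array are given for up to 3 members per role class with the smallest F-test p, and for RRN3, MAF1, BRF1, FHL1 and IFH1. From each related list, the 2 genes with the smallest p at 14 against 0 days are named. RPA12, RPC82, RPC31, RPO31, RET1, RPC53, RPC37 and RPA14 are also given by array, chosen after their values were seen. Alternatives covered normalisation, floor, filter, probe set choice, trend, array weights, groups fitted, blocks and each left-out array.

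Replicate numbers were checked as pairs: the correlation of same-numbered arrays' deviations from their time means ran from -0.09 between 0 and 3 days to 0.29 between 7 and 14 days, so the numbers were not taken to pair samples.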

Additional observations from a re-analysis of the deposited data

How the results depend on the processing

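With 2 arrays per time, the calls depended on single arrays and on the fit. Of 2 members called at 14 against 3 days, 1 was left without the filter (2.69% of all genes called). With the mean of all probe sets 1 was left (4.43%), and 0 without the intensity trend (0.347%). Leaving out 1 array also changed this count, and the share of all genes called changed too. The F test's 1 call became 0 with equal array medians, with the mean of all probe sets and without the trend. It became 2 without normalisation and with the filter at the median, and it also depended on which array was left out. Counts of 0 became 1 at 14 against 0 days (3.61% of all genes) and 2 at 7 against 3 days (3.96%) with the filter at the median, and 4 at 7 against 3 days with array weights (4.86%). Without normalisation they became 7, all higher, at 7 against 0 days (27.4% of all genes) and 1 at 7 against 3 days (11.9%). Leaving out 1 array also changed the counts at 3 against 0 days and at 7 against 3 days, and the share of all genes called there changed too. A time left with 1 array was assumed to vary like the others.

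With the replicate number as a block, members called were 1 at 14 against 0 days, 2 at 7 against 3 days and 4 at 14 against 3 days, while all genes called came to 3.05%, 3.95% and 8.29%; the block changed no other count of members called. The labels name no array set, so 1 was made by ranking the arrays of each time by mean log2 spiked poly(A) signal. That signal was 4.22 and 4.35 at 0 days, and 6.97 and 4.61 at 7 days, so the ranks parted the arrays unevenly. With this set as a block, members called in the same comparisons were 2, 3 and 5, beside 4.28%, 3.26% and 7.77% of all genes. The F test then called 2 members. RPA190 stayed called at 14 against 3 days in 15 of 20 alternatives (adjusted p from 0.0128 to 0.197) and RPC34 in 14 of 20 (0.0192 to 0.184).

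Medians over members without normalisation were 0.61 at 3, 0.77 at 7 and 0.31 at 14 against 0 days, 0.24 at 7 and -0.085 at 14 against 3 days, and -0.58 at 14 against 7 days. Equal array medians gave 0.45 at 3 against 0 days, and the filter at the median gave -0.16 at 7 against 0 days. Without 1 array they ran from 0.0055 to 0.39 at 3, -0.25 to 0.21 at 7 and -0.35 to 0.022 at 14 against 0 days, with 0 day replicate 1 giving 0.0055, -0.25 and -0.35, and from -0.35 to -0.029 at 14 against 7 days.

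At 14 against 0 days, none of the following called, log2 fold changes turned positive without normalisation for RPA34 (0.094), RPC40 (0.31), RPC10 (0.37), RPC17 (0.0070), TFC6 (0.39), FHL1 (0.26), IFH1 (0.24) and RRN3 (0.24). All genes shifted by a median of 0.59 on that scale, and relative to it all 8 were negative, between -0.58 and -0.19. Without 1 array, RPC19 ran from -0.012 to 0.79, RPB5 from -0.29 to 0.46, BRF1 from -0.35 to 1.58, MAF1 from -0.20 to 0.49, RPC10 from -0.37 to 0.085 and FHL1 from -0.51 to 0.41. The cause of the spread between arrays was not tested. TFC4 lay near the floor in 1 array, 0 day replicate 1, and its value at 14 against 0 days rests on it.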

Other observations

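RNase P and RNase MRP process the precursors that polymerases III and I make. Their proteins, together with the La protein LHP1, were read as a further list. Of 12 genes limma called 0 in any comparison. At 14 against 3 days 0 higher and 4 lower had an unadjusted p under 0.05, beside 12.9% and 11.7% of all genes. The median log2 fold change of the 12 there was -0.57, where that of all genes was 0.02. It stayed negative under the 3 scalings. SNM1, an RNase MRP protein, had 63.2 and 91.0 at 14 days, against 190 and 174 at 3 days (log2 fold change -1.26 ± 0.37 SE, limma adjusted p = 0.0773). RPR2, an RNase P protein, had 26.5 and 49.4 at 14 days, against 7.62 and 5.11 at 0 days (limma adjusted p = 0.154, log2 fold change 2.53 ± 0.95 SE). These low signals lay near the floor.

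Among 23 genes of kinases and phosphatases that act on the machinery, CDC55, a regulatory subunit of protein phosphatase 2A, passed the test at 14 against 3 days. It was higher there (limma adjusted p = 0.0406). This 1 call among 23 genes stands beside 4.59% of all genes called, so the share is near the background. CDC55 was chosen after its values were seen. Its mean log2 signal was 5.54 at 0 days, 1.63 at 3 days, close to the floor, 5.12 at 7 days and 5.24 at 14 days. At 14 against 0 days its log2 fold change was -0.30 (limma adjusted p = 0.868), so the call rests on the low 3 day arrays. LST8 and TCO89 encode subunits of the TORC1 kinase complex, which signals nutrient supply to both polymerases. At 14 against 0 days their log2 fold changes were 1.50 ± 0.45 (SE, limma adjusted p = 0.101) and 1.24 ± 0.41 (SE, limma adjusted p = 0.120). The genes KOG1, TOR1 and TOR2 of the same list went the other way, at -0.25, -0.39 and -0.88. LST8 was uneven at 0 days, at 1608 and 582. At 14 against 3 days LST8 and TCO89 had 0.65 and -0.14. Of 12 further partners of the polymerases limma called 0 in any comparison, with 1 higher and 1 lower at an unadjusted p under 0.05 at 14 against 3 days, beside 12.9% and 11.7% of all genes. FOB1, the fork-barrier protein of the ribosomal DNA, and REB1, which binds its terminator, had log2 fold changes of -0.96 ± 0.49 and 0.91 ± 0.52 at 14 against 0 days (SE), with limma adjusted p of 0.270 and 0.331.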
